A study of Homo sapiens with 6 samples.

Results

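Aminoacyl-tRNA synthetases are the enzymes that join each amino acid to its tRNA. The 37 genes described here were taken by name from a fixed list of cytosolic and mitochondrial enzymes, and all 37 were found among the 20263 genes of the expression table. Gene names are the older symbols that the table uses, without the final digit of the current ones. The cells were THP-1, a human monocytic leukaemia line. The 3 shGOT1 libraries came from THP-1 cells with a short hairpin RNA against GOT1, coded T-91 and with the genotype given as GOT1 knockdown. The 3 shNC libraries came from THP-1 cells coded T-NC with the genotype given as wt, and shNC is taken here as the control hairpin. No other treatment, dose or time is given for either group. GOT1 is the cytosolic aspartate aminotransferase. A single GOT1 hairpin was named, with no second hairpin and no rescue, and the labels do not say whether each line was a clone or a mixed population. Replicates are called biological without a statement that they came from separate cultures, so a p-value here reflects only how far these libraries spread.

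Each synthetase recognises a single amino acid, or in the case of EPRS a pair of them, and the charged tRNA is then carried to the ribosome. Most amino acids have a nuclear gene for the cytosolic enzyme and a separate nuclear gene for the mitochondrial enzyme, while GARS and KARS supply both compartments from 1 gene each. Several cytosolic enzymes sit together in the multi-synthetase complex. Uncharged tRNA activates the kinase GCN2 (gene EIF2AK4), which phosphorylates eIF2 and favours translation of the transcription factor ATF4. ATF4 in turn is known to bind the promoters of many cytosolic synthetase genes.

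Total counts were 26734767 to 39144890 in shGOT1 libraries and 26226977 to 28712260 in shNC libraries. GOT1 was at 3.27, 2.87 and 3.33 TPM (a level per length of transcript, with equal sums in all libraries) in shGOT1 libraries, against 15.3, 16.7 and 16.3 TPM in shNC libraries. The fitted log2 ratio of GOT1 was -2.45 (SE 0.0907, edgeR adjusted p = 1.26e-05). All 10 monocytic markers were detected, with summed levels of 1873 to 1983 TPM in shGOT1 and 2183 to 2236 TPM in shNC libraries. Of these markers 4 rose, 4 fell and 2 did not pass, with a median log2 fold change of 0.16 and a range of -3.05 (LYZ) to 0.67 (MPO). Of 6 T and B cell markers, 3 (CD3E, CD3G and MS4A1) were at 0 in every library, and the list summed to 16.6 to 20.3 TPM in shGOT1 and 10.4 to 11.4 TPM in shNC libraries. Of 5 epithelial markers EPCAM and CDH1 were at 0, and the list summed to 4.99 to 5.55 TPM in shGOT1 and 3.02 to 3.38 TPM in shNC libraries, with KRT8 higher (0.77) and KRT18 lower (-3.66). The 5 erythroid markers summed to 3.90 to 4.97 TPM in shGOT1 and 5.11 to 6.96 TPM in shNC libraries. The part of these markers in the values below was not tested. Each of the 5 fibroblast and endothelial markers was under 1 TPM in every library. In these bulk libraries, fewer cells of a type and less RNA per cell cannot be told apart.

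The synthetase genes split between both directions, with modest changes apart from YARS. Counts were compared with edgeR's quasi-likelihood test, 2-sided, with p-values adjusted over all 13735 genes tested and a threshold of 0.05. All 37 synthetase genes passed the filter on low counts. Of them, 11 rose (29.7%), 8 fell (21.6%) and 18 did not pass. Over all genes tested, 44.6% passed, 21.9% as higher and 22.8% as lower in shGOT1 cells. The 51.4% of synthetase genes called lies near that background. The median log2 fold change was 0.0063 for the synthetase genes and 0.0045 for all genes tested, and the median size of the change was 0.20 and 0.25. No synthetase gene changed by as much as 2-fold.

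The direction of 8 members differed between counts and TPM. The log2 ratio of mean TPM exceeded the count-based log2 fold change by a median of 0.105 over 13727 genes and by 0.106 over the synthetase genes. With limma on log2(TPM + 1), 16 synthetase genes passed as higher and 6 as lower, beside the 11 and 8 from counts. In the same comparison of all genes, 66.4% of the calls were higher with TPM and 49.0% with counts. With limma on log2(TPM + 1) after median-of-ratios scaling between libraries, the share was 49.0%. Values per library are therefore given below as CPM (counts scaled by the library total and its TMM scaling factor), and TPM is used for levels between genes. The synthetase genes together took 0.290 to 0.294% of all TPM in shGOT1 libraries and 0.278 to 0.283% in shNC libraries. Their summed CPM had the opposite order, at 4119, 4120 and 4173 in shGOT1 libraries against 4346, 4456 and 4392 in shNC libraries. CPM of the groups did not overlap for 14 members with shGOT1 above and 12 with shGOT1 below, where 28.5% and 28.6% of all genes tested did the same (57.2% in either direction). The 19 called members were all among them. TPM did not overlap for 20 members with shGOT1 above and 6 with shGOT1 below, against 36.4% and 18.8% of all genes tested (55.2% in either direction).

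**Figure D1:**
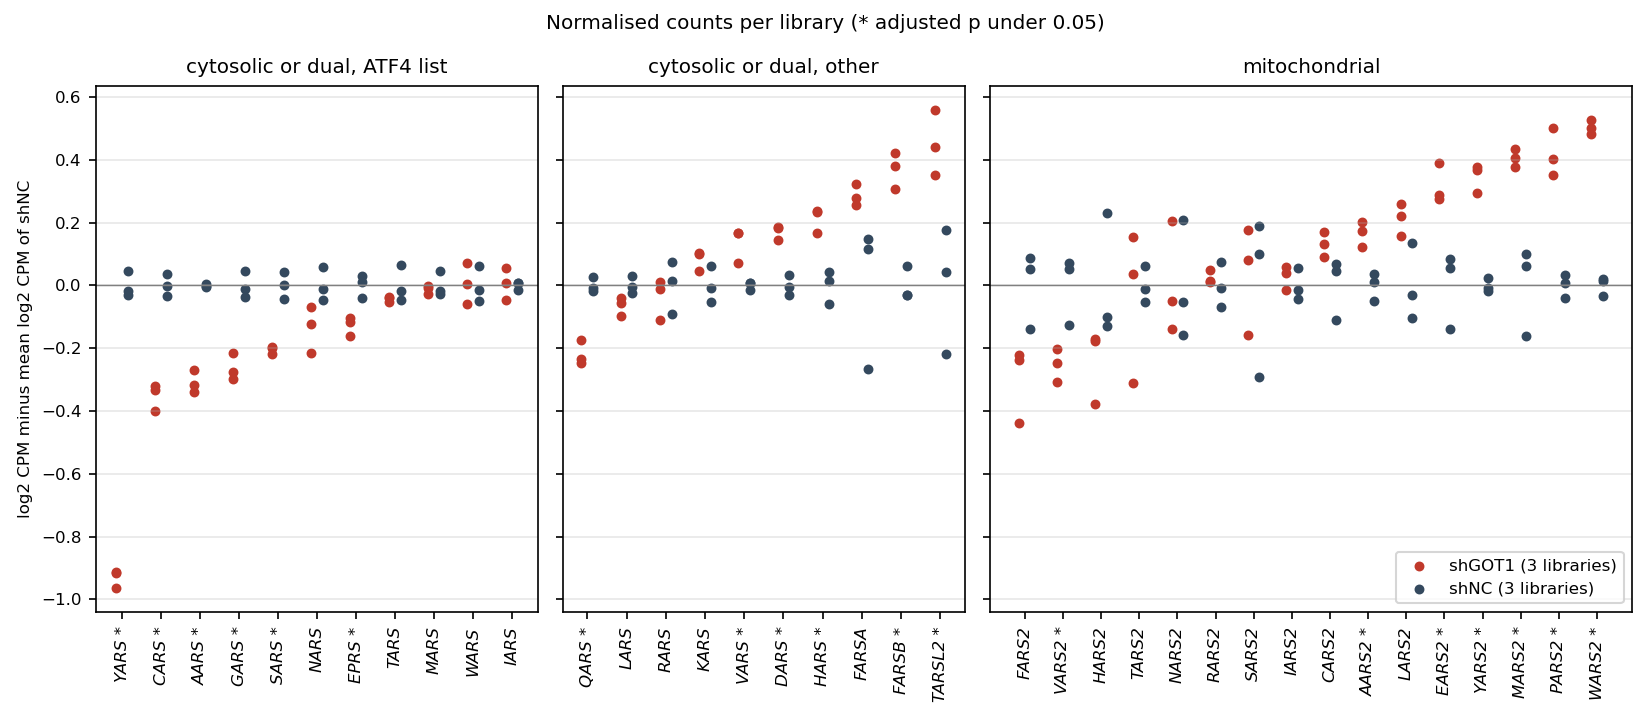
CPM of each of the 37 synthetase genes in each library, plotted as log2 CPM minus the gene's mean log2 CPM in shNC libraries. Points are single libraries, and asterisks mark edgeR adjusted p under 0.05. The panels separate cytosolic or dual genes on a list of ATF4 targets written from general knowledge, other cytosolic or dual genes, and mitochondrial genes. The shGOT1 points of YARS lie far below its shNC points, while most other members differ by under 0.5.

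Levels of the members spanned a wide range within each library. In shGOT1 libraries the highest mean was 229.5 TPM for AARS, the cytosolic alanine enzyme, and the lowest was 3.55 TPM for TARSL2, a threonyl-tRNA synthetase of the cytosol. In shNC libraries the same genes stood at the ends, with 265.4 TPM for AARS and 2.43 TPM for TARSL2. The cytosolic and dual genes summed to 2511 ± 29.4 TPM in shGOT1 libraries and 2431 ± 29.9 TPM in shNC libraries, and the mitochondrial genes to 415.8 ± 4.87 TPM in shGOT1 libraries and 372.2 ± 4.12 TPM in shNC libraries (SD, n = 3 each). Summed CPM of the cytosolic and dual genes had the opposite order, at 3531, 3530 and 3591 in shGOT1 libraries against 3784, 3904 and 3843 in shNC libraries. Summed CPM of the mitochondrial genes kept the order, at 589, 589 and 582 in shGOT1 libraries against 562, 552 and 548 in shNC libraries.

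**Figure D2:**
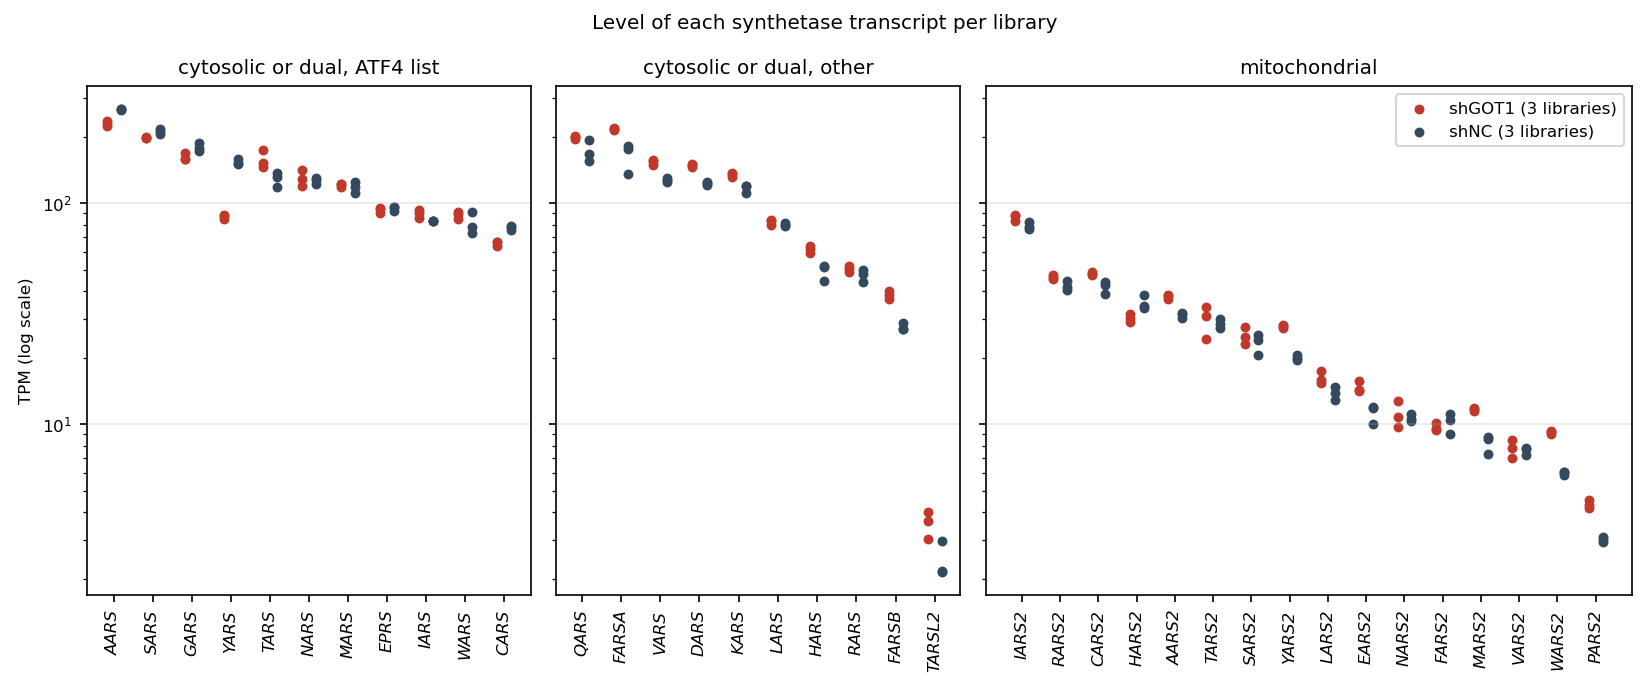
Level of each synthetase gene in TPM on a log axis, one point for each library, with shGOT1 and shNC libraries in different colours. AARS is at the top of the range and TARSL2 at the bottom in both groups.

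The cytosolic and dual enzymes held 7 of the 8 falls and 5 of the 11 rises. Among the 19 cytosolic enzymes 5 rose, 6 fell and 8 did not pass, with a median log2 fold change of -0.04. Over all genes tested, 21.9% were higher and 22.8% lower. YARS, the cytosolic tyrosine enzyme, had the largest change of any member. It had 144, 149 and 148 CPM in shGOT1 libraries, against 274, 289 and 277 CPM in shNC libraries. Every shGOT1 library was far below every shNC library, 47.5% lower on the fitted fold change (log2 fold change -0.93, SE 0.0313, edgeR adjusted p = 9.68e-06). On the TPM scale YARS was at 85.1, 87.4 and 88.1 in shGOT1 libraries, against 150.6, 158.6 and 152.7 in shNC libraries.

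YARS lies at chr1:32775239-32818153 on the minus strand in the table's coordinates, and overlaps the opposite-strand gene S100PBP. Coordinates of 27 of the 37 synthetase genes are identical to those of GENCODE on GRCh38, while its build is not given in the sources used here. Genes around YARS moved with it. Within 3 Mb on either side there were 38 other tested genes that averaged 5 TPM or more, and 33 of them were lower in shGOT1 cells, 2 were higher and 3 did not pass. Their median log2 fold change was -0.60, against 0.0045 over all genes tested. RNF19B (-1.55) and PEF1 (-0.94) were more negative than YARS, S100PBP was at -0.66, and MARCKSL1 (0.41) and TMEM54 (0.46) were the 2 that rose. The part that this neighbourhood has in the YARS value was not tested. YARS stood 0.33 below the neighbourhood median on the log2 scale. The median of the 10 nearest such genes on each side was -0.64 for YARS, 0.29 for WARS2 and 0.26 for YARS2, and within 0.25 of 0 for the remaining members.

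**Figure D3:**
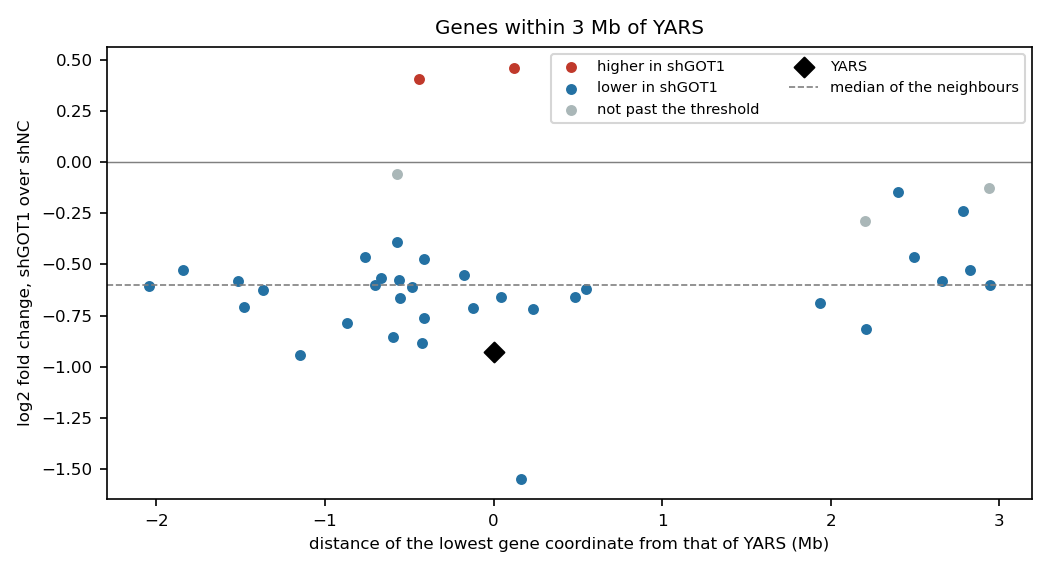
Log2 fold change (shGOT1 over shNC) of YARS and the 38 tested genes around it, against distance in Mb on chromosome 1; colours give the call and the dashed line is the median of the neighbours. Of the 38 neighbours, 33 were called lower, and RNF19B and PEF1 lie below YARS.

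The other falls among the cytosolic and dual genes were smaller. CARS, which charges cysteine, had 83.6, 88.3 and 87.5 CPM in shGOT1 libraries, against 113, 108 and 110 CPM in shNC libraries (log2 fold change -0.35, edgeR adjusted p = 0.000626). AARS had 426, 406 and 412 CPM in shGOT1 libraries, against 512, 516 and 513 CPM in shNC libraries (log2 fold change -0.31, SE 0.0234, edgeR adjusted p = 0.000172). GARS, the glycine enzyme of both compartments, had 210, 213 and 222 CPM in shGOT1 libraries, against 256, 266 and 251 CPM in shNC libraries (log2 fold change -0.26, edgeR adjusted p = 0.00149). For these genes each shGOT1 library was below each shNC library on both scales. SARS, the serine enzyme, had 192, 192 and 190 CPM in shGOT1 libraries, against 214, 227 and 221 CPM in shNC libraries (log2 fold change -0.20, edgeR adjusted p = 0.00214). EPRS, which charges glutamate and proline, had 246, 239 and 248 CPM in shGOT1 libraries, against 260, 272 and 269 CPM in shNC libraries (log2 fold change -0.13, edgeR adjusted p = 0.013). SARS was again lower on both scales, whereas the EPRS groups overlapped in TPM.

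QARS, the glutamine enzyme, and VARS2 are the called members whose sign differed between counts and TPM. QARS had 156, 155 and 163 CPM in shGOT1 libraries, against 181, 187 and 182 CPM in shNC libraries (log2 fold change -0.22, SE 0.0305, edgeR adjusted p = 0.002). In TPM QARS stood at 194.7, 200.3 and 202.0 in shGOT1 libraries, against 166.3, 155.1 and 194.2 in shNC libraries. For QARS the shGOT1 libraries were thus all lower in CPM and all higher in TPM, and the gap between both log2 ratios was 0.43. TARS, the main cytosolic threonine enzyme, had the next largest gap at 0.33, with a count-based log2 fold change of -0.04 that did not pass and a log2 ratio of mean TPM of 0.29. After median-of-ratios scaling of the TPM, limma gave 0.11 for QARS and 0.18 for TARS, neither of which passed (adjusted p = 0.323 and 0.168). MARS, TARS2, RARS, LARS and NARS, none of them called, also had a negative log2 fold change in counts and a positive ratio in TPM.

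**Figure D4:**
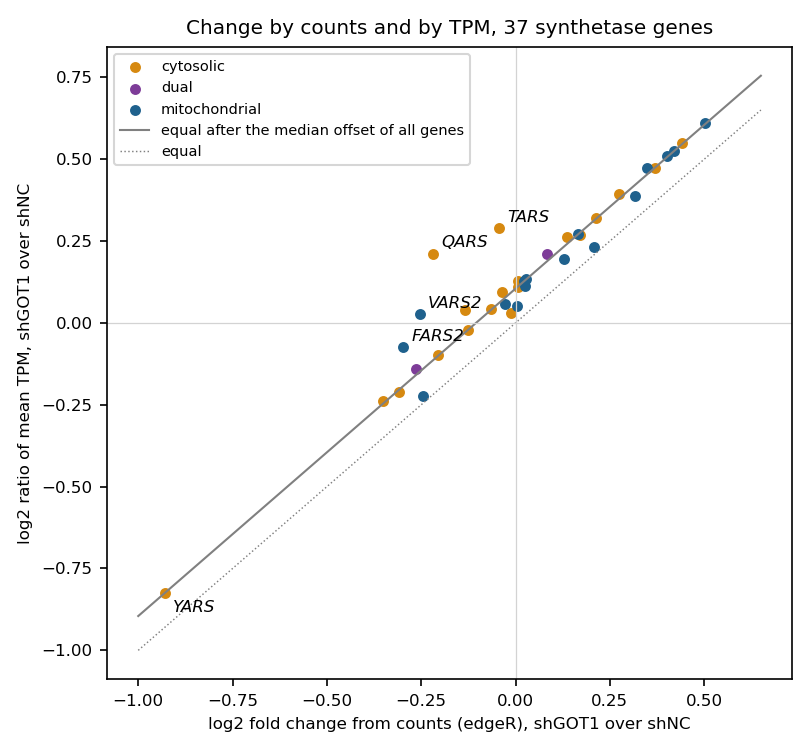
Log2 ratio of mean TPM against the log2 fold change from counts (shGOT1 over shNC) for the 37 synthetase genes, coloured by compartment; the dotted line marks equal values and the solid line adds the median offset of all genes. QARS lies furthest from the dotted line, by 0.43, and the median offset of the members is 0.106.

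The cytosolic rises were those of TARSL2, FARSB, HARS, DARS and VARS. FARSB, the beta subunit of the phenylalanine enzyme, had 64.7, 68.1 and 70.1 CPM in shGOT1 libraries, against 54.6, 51.3 and 51.2 CPM in shNC libraries (log2 fold change 0.37, SE 0.0476, edgeR adjusted p = 0.00144). Its alpha subunit FARSA had 189, 198 and 192 CPM in shGOT1 libraries, against 132, 175 and 171 CPM in shNC libraries, and did not pass (log2 fold change 0.27, edgeR adjusted p = 0.086). The groups of both subunits were separate, but shNC replicate 1 was low for FARSA. Without that library the log2 fold change of FARSA was 0.15 and passed (edgeR adjusted p = 0.0192). TARSL2 had 6.29, 5.80 and 5.44 CPM in shGOT1 libraries, against 3.67, 4.83 and 4.39 CPM in shNC libraries (log2 fold change 0.44, SE 0.132, edgeR adjusted p = 0.0365). Leaving out any library but shNC replicate 2 ended that call, at edgeR adjusted p of 0.0585 to 0.101.

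DARS, the aspartate enzyme, charges the amino acid that GOT1 interconverts with oxaloacetate. It had 175, 180 and 180 CPM in shGOT1 libraries, against 158, 162 and 155 CPM in shNC libraries (log2 fold change 0.17, SE 0.0285, edgeR adjusted p = 0.00405). Every shGOT1 library was above every shNC library. Glutamate and glutamine are the other amino acids close to the GOT1 reaction. Of their genes, EPRS and QARS fell on the count scale as given above. The mitochondrial glutamate gene EARS2 rose (log2 fold change 0.32, edgeR adjusted p = 0.0158).

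VARS, the cytosolic valine enzyme, had 311, 332 and 333 CPM in shGOT1 libraries, against 298, 298 and 294 CPM in shNC libraries (log2 fold change 0.14, edgeR adjusted p = 0.0151). The rise of VARS did not pass when shGOT1 replicate 2 (edgeR adjusted p = 0.0617) or replicate 3 (edgeR adjusted p = 0.0606) was left out. HARS, the histidine enzyme, had 73.5, 77.0 and 77.2 CPM in shGOT1 libraries, against 62.9, 66.2 and 67.4 CPM in shNC libraries (log2 fold change 0.21, edgeR adjusted p = 0.00807). Both groups of values were separate. HARS2, its mitochondrial counterpart, had 30.1, 34.6 and 34.7 CPM in shGOT1 libraries, against 45.8, 36.4 and 35.7 CPM in shNC libraries, and did not pass (log2 fold change -0.25, edgeR adjusted p = 0.131). HARS and HARS2 are neighbours that point away from each other and overlap in the table's annotation, so their counts are uncertain. In RefSeq on GRCh38.p14 their start sites are 85 bases apart, and their promoter windows share the 184 bases at chr5:140691321-140691504, shown on the plus strand because both genes are read outward from it.

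HARS and HARS2 shared region: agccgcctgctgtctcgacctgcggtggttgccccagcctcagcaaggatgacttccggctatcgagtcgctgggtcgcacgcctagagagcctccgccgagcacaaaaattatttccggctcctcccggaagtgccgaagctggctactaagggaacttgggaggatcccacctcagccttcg

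Of the list, 8 cytosolic or dual enzymes belong to the multi-synthetase complex, namely DARS, EPRS, IARS, KARS, LARS, MARS, QARS and RARS. DARS rose, EPRS and QARS fell and 5 did not pass, with a median log2 fold change of -0.02. Of the 13 cytosolic or dual genes outside the complex, 4 rose, 5 fell and 4 did not pass, with a median of -0.04. The share over all genes tested was 21.9% higher and 22.8% lower. The 3 scaffold genes AIMP1 (0.14), AIMP2 (0.16) and EEF1E1 (0.04) had no call in edgeR, none at an unadjusted p under 0.05, and none in DESeq2. The log2 fold changes of MARS and IARS were -0.01 and 0.01, and the 95% interval of WARS, the tryptophan enzyme, was -0.11 to 0.12 around 0.01. The leucine enzyme LARS was at -0.06, and the arginine enzyme RARS at -0.04. MARS overlaps DDIT3 and ARHGAP9 in the table, and WARS overlaps WDR25.

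The mitochondrial enzymes held 6 of the 11 rises and 1 of the 8 falls. Of the 16 genes, 9 did not pass, and the median log2 fold change was 0.08. Over all genes tested, 44.6% passed, 21.9% as higher and 22.8% as lower. WARS2, the mitochondrial tryptophan enzyme, had 13.7, 13.4 and 13.5 CPM in shGOT1 libraries, against 9.33, 9.69 and 9.64 CPM in shNC libraries (log2 fold change 0.50, SE 0.0618, edgeR adjusted p = 0.00118). It had the largest rise of the list, with clearly separate groups, and its TPM averaged 9.18 ± 0.182 in shGOT1 libraries and 6.01 ± 0.123 in shNC libraries (SD, n = 3 each). Nearby genes had a median log2 fold change of 0.29 around WARS2, and their part in its value was not tested. YARS2, the tyrosine enzyme of mitochondria, had 28.7, 30.2 and 30.4 CPM in shGOT1 libraries, against 23.3, 23.2 and 23.8 CPM in shNC libraries (log2 fold change 0.35, SE 0.0476, edgeR adjusted p = 0.00183). MARS2, for methionine, had 18.6, 19.0 and 18.2 CPM in shGOT1 libraries, against 14.6, 15.1 and 12.5 CPM in shNC libraries (log2 fold change 0.40, edgeR adjusted p = 0.00942). In each of these genes the groups did not overlap.

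PARS2, for proline, had 5.12, 5.67 and 5.29 CPM in shGOT1 libraries, against 4.10, 4.03 and 3.90 CPM in shNC libraries (log2 fold change 0.42, edgeR adjusted p = 0.013). EARS2, for glutamate, had 28.99, 29.2 and 31.4 CPM in shGOT1 libraries, against 25.4, 24.8 and 21.8 CPM in shNC libraries (log2 fold change 0.32, edgeR adjusted p = 0.0158). AARS2, for alanine, had 76.3, 77.8 and 73.7 CPM in shGOT1 libraries, against 65.4, 69.5 and 68.2 CPM in shNC libraries (log2 fold change 0.17, edgeR adjusted p = 0.0174). The groups of these genes were separate, by a narrow margin for AARS2. The EARS2 call was lost without shGOT1 replicate 3 (edgeR adjusted p = 0.0539), and the AARS2 call without shGOT1 replicate 1, shGOT1 replicate 2 or shNC replicate 1 (edgeR adjusted p = 0.0504, 0.0536 and 0.0552). EARS2 overlaps UBFD1, and AARS2 overlaps TMEM151B. VARS2, the mitochondrial valine enzyme, was the only mitochondrial gene called lower, with 10.7, 11.5 and 11.2 CPM in shGOT1 libraries, against 13.7, 13.9 and 12.2 CPM in shNC libraries (log2 fold change -0.25, edgeR adjusted p = 0.0431). Its TPM groups overlapped, and DESeq2 did not call it (adjusted p = 0.073). Leaving out any library but shNC replicate 3 also ended the call, at edgeR adjusted p of 0.0698 to 0.125. Genes of the mitochondrial genome itself took 10.3 to 10.4% in shGOT1 and 9.07 to 9.84% of all TPM in shNC libraries, and the part of this in these values was not tested.

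The remaining mitochondrial genes did not pass, and their intervals differed in width. SARS2, for serine, had 27.5, 25.7 and 21.8 CPM in shGOT1 libraries, against 26.1, 19.9 and 27.7 CPM in shNC libraries, and the 95% interval of its log2 fold change was -0.33 to 0.38. IARS2 (0.03) and RARS2 (0.02) lay close to 0 with narrower intervals, and FARS2 at -0.30 had the most negative value of this group (edgeR adjusted p = 0.0592). NARS2 (0.00, for asparagine) and TARS2 (-0.03, for threonine) had overlapping groups. LARS2, for leucine, had 36.4, 38.1 and 39.1 CPM in shGOT1 libraries, against 35.9, 32.0 and 30.4 CPM in shNC libraries, and CARS2, for cysteine, had 39.6, 41.7 and 40.7 CPM in shGOT1 libraries, against 38.3, 34.4 and 38.9 CPM in shNC libraries. Both sat above shNC in every library with log2 fold changes of 0.21 and 0.13 that missed the threshold. SARS2 overlaps MRPS12 in the table.

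Set side by side, 17 pairs of a cytosolic and a mitochondrial gene were formed by the first letter of the symbol. FARS2 and TARS2 were used for more than 1 partner. EPRS was paired with EARS2 only, although it also charges proline. Its proline counterpart PARS2 (0.42, called higher) also had the opposite call to EPRS (-0.13, called lower), outside the 17. The mitochondrial gene had the higher log2 fold change in 12 of the 17, a difference that was not tested within pairs. AARS with AARS2, EPRS with EARS2, and YARS with YARS2 had opposite calls, the cytosolic gene lower and the mitochondrial gene higher. VARS with VARS2 had opposite calls the other way round. The mean TPM of YARS was 3.14 times that of YARS2 in shGOT1 libraries and 7.71 times in shNC libraries. Nearby genes had median log2 fold changes of -0.64 around YARS and 0.26 around YARS2, and their part in this gap was not tested.

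**Figure D5:**
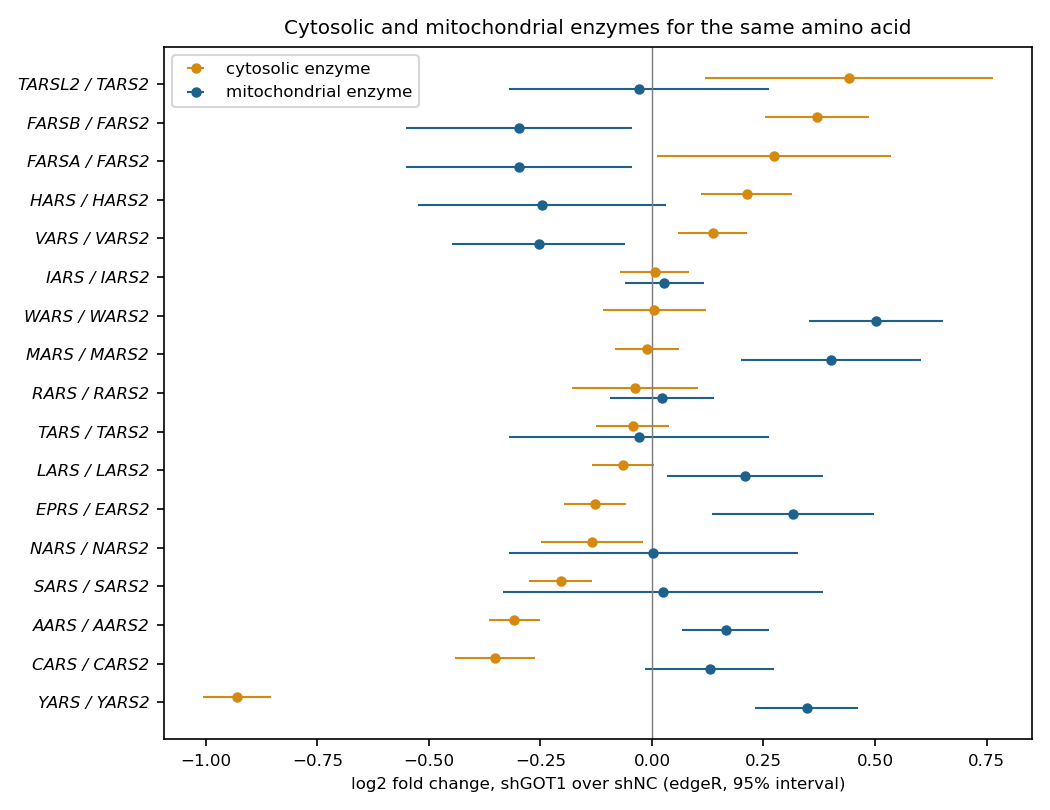
Log2 fold change (shGOT1 over shNC, from counts) with its 95% interval for the cytosolic and the mitochondrial enzyme of each of the 17 pairs. The widest gap is that of YARS (-0.93) and YARS2 (0.35), while for VARS, HARS, TARSL2 and the phenylalanine subunits the cytosolic value is the higher.

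By catalytic class, which separates the enzymes into structurally unrelated families, the counts were alike. Of 18 class I genes 5 rose and 4 fell, and of 18 class II genes 6 rose and 3 fell. All genes tested had 21.9% higher and 22.8% lower. EPRS, which joins a class I and a class II enzyme in 1 protein, was left out of this division.

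KARS, the lysine enzyme of both compartments, did not pass. It had 137, 131 and 136 CPM in shGOT1 libraries and 126, 123 and 133 CPM in shNC libraries, which overlap (log2 fold change 0.08, edgeR adjusted p = 0.13).

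Of the cytosolic and dual genes, 11 were listed from general knowledge as ATF4 targets, and no call among them was a rise in the counts. This list, like the others, was chosen with earlier results of these data known. Of the 11 (AARS, CARS, EPRS, GARS, IARS, MARS, NARS, SARS, TARS, WARS and YARS), 6 fell and 5 did not pass, with a median log2 fold change of -0.13. None rose in edgeR, at an unadjusted p under 0.05, or in DESeq2, while TARS was called higher with limma on TPM. Of the 10 cytosolic and dual genes not on that list, 5 rose, QARS fell and 4 did not pass, with a median of 0.15. Leaving out YARS, 5 of the 10 ATF4-list genes fell, with a median of -0.13, and they summed to 2056, 2016 and 2062 CPM in shGOT1 libraries against 2265, 2322 and 2275 CPM in shNC libraries. All genes tested had 21.9% higher and 22.8% lower. The difference between the lists was not tested.

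Promoter sequences, 250 bases before to 50 after the start, were matched in RefSeq (GRCh38.p14) for 30 of the 37 genes. TARSL2, DARS, AARS2, VARS, LARS, VARS2 and YARS had no entry. The letters TGATGNAA, which contain the TGATGCAA form of the site bound by ATF4 with its C/EBP partners, were searched on both strands. They were found in 7 of the 30, against 3.62% of all 35116 promoters in the table, and the form TGATGCAA alone in 0.866%. Of the 7, 6 hold TGATGCAA, and all 6 are cytosolic genes on the ATF4 list. Windows of 58 bases are shown with the match in capitals, read 5′ to 3′ on the strand of the gene, so that TTGCATCA is TGATGCAA on the other strand.

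CARS, chr11:3057393-3057450, minus strand: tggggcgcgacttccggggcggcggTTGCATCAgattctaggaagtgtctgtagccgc
AARS, chr16:70289661-70289718, minus strand: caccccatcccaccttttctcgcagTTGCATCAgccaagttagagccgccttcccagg
NARS, chr18:57621790-57621847, minus strand: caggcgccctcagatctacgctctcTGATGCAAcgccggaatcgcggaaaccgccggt
TARS, chr5:33440942-33440999, plus strand: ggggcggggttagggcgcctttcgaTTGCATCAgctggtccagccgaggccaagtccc
MARS, chr12:57488039-57488096, plus strand: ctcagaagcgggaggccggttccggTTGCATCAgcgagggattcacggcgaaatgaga
IARS, chr9:92293678-92293735, minus strand: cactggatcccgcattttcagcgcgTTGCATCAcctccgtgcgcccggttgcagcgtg
YARS2, chr12:32756062-32756119, minus strand: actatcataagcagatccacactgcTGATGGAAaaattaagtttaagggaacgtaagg

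Of the 6 genes with TGATGCAA, CARS and AARS fell, and NARS, TARS, MARS and IARS did not pass. NARS, for asparagine, had 184, 173 and 191 CPM in shGOT1 libraries, against 199, 194 and 209 CPM in shNC libraries (log2 fold change -0.13, edgeR adjusted p = 0.061). Without shGOT1 replicate 3 the fall of NARS passed (edgeR adjusted p = 0.0391). On the ATF4 list, 4 genes with a promoter entry held no match, and 3 of these fell (EPRS, GARS and SARS). The median log2 fold change was -0.09 for the 6 genes with a match and -0.17 for the 4 without.

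Genes that sense uncharged tRNA or act with ATF4 are described beside the synthetases because they share that pathway. Of 11 such genes tested, 5 fell and 1 rose, with a median log2 fold change of -0.09, where 22.8% of all genes tested were lower and 21.9% higher. SESN2, a stress-induced inhibitor of mTORC1 signalling, had the largest fall at -0.91 (SE 0.0699, edgeR adjusted p = 0.000182). Genes around SESN2 on its chromosome were not examined as they were for YARS, so their part in its value was not tested. The C/EBP family factor CEBPB was at -0.71 and DDIT3, which encodes CHOP, at -0.71, and asparagine synthetase, ASNS, was at -0.37 (SE 0.0511, edgeR adjusted p = 0.00192). The ASNS call was lost with limma on log2(TPM + 1), on log2(TPM + 0.1) and with the 5 TPM filter (limma adjusted p of 0.0603 to 0.0617). ATF4 mRNA fell by 0.09 (SE 0.0177, edgeR adjusted p = 0.00805), although its activity is set largely by translation. With limma on log2(TPM + 1) its value was positive, at 0.021, and after median-of-ratios scaling of the TPM it was negative, at -0.085, without passing in either. EIF2S1, the eIF2 alpha subunit, rose by 0.28, while EIF2AK4 and GCN1, the sensor and its activator, did not pass (0.06 and -0.04). TRIB3, CHAC1 and CEBPG did not pass either, and CEBPG was called higher with limma on log2(TPM + 1) (0.15, limma adjusted p = 0.0324). DDIT3 overlaps MARS in the table, so its value is uncertain.

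Of 7 factors that carry charged tRNA to the ribosome, EEF1A1, EEF1A2, EEF1B2, EEF1D and EEF1G fell, where 22.8% of all genes tested were lower, and the mitochondrial elongation factor TUFM rose by 0.18 (edgeR adjusted p = 0.00601). EEF1A2 (-0.97, edgeR adjusted p = 8.58e-06) and EEF1A1 (-0.56, edgeR adjusted p = 0.00119) encode the GTPase that delivers the charged tRNA, and EEF1G (-0.31) belongs to its exchange complex. EEF1D (-0.17) rested on an edgeR adjusted p of 0.0487, and the call was lost with the replicate block (edgeR adjusted p = 0.117) and without shGOT1 replicate 1 or 3 or shNC replicate 1 or 3 (edgeR adjusted p of 0.125 to 0.134). EEF1A1 has many near-identical pseudogenes, so its value is uncertain. Mitochondrial glutaminyl-tRNA is made by amidation and not by a synthetase of its own. For it, QRSL1 (0.15) and GATC (0.17) rose among 4 genes tested, where 21.9% of all genes tested were higher. Leaving out any library but shNC replicate 1 ended the call of QRSL1 (edgeR adjusted p of 0.0651 to 0.0856), and any but shNC replicate 3 that of GATC (edgeR adjusted p of 0.0563 to 0.112). Both were also lost with the replicate block (edgeR adjusted p = 0.0668 and 0.0545), and GATC in DESeq2 (adjusted p = 0.0506). GATB (0.01) and MTFMT, the formyltransferase of the initiator tRNA (0.06), did not pass. Among 13 genes of tRNA end processing, splicing and export, 3 were called and 10 did not pass, where 44.6% of all genes tested passed. The export receptor XPOT (-0.15) fell. Its call was lost in all 4 TPM settings (limma adjusted p of 0.53 to 0.921). TRMT10C (0.36) and HSD17B10 (0.21), both subunits of mitochondrial ribonuclease P, rose. KIAA0391, the catalytic subunit of the same ribonuclease, was at -0.35 and did not pass (edgeR adjusted p = 0.0645), but was called lower by DESeq2 (adjusted p = 0.0432) and without shNC replicate 1 (log2 fold change -0.19, edgeR adjusted p = 0.0454). In the selenocysteine pathway SECISBP2 (0.24) rose, and the other 5 of 6 genes did not pass, where 44.6% of all genes tested passed.

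WARS is an interferon-inducible synthetase in human cells, so 9 interferon response genes were set beside it. Of these 5 rose, among them IFIT3 (1.02), TAP1 (0.52) and GBP5 (0.29), GBP2 (-0.39) fell, and 3 did not pass, where 21.9% of all genes tested were higher and 22.8% lower. The GBP5 call was lost on leaving out any library but shNC replicate 2 (edgeR adjusted p of 0.0547 to 0.0963), with the replicate block (edgeR adjusted p = 0.0707) and in all 4 TPM settings. WARS had 114, 109 and 105 CPM in shGOT1 libraries, against 108, 114 and 105 CPM in shNC libraries, and the groups overlap fully (SE 0.0476, edgeR adjusted p = 0.938).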

How the data were processed

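Poly(A)-selected RNA from 3 shGOT1 and 3 shNC libraries of THP-1 cells was sequenced by the authors, and 1 table with 20263 genes was used. StringTie, Trimmomatic, FastQC and DESeq2 were run, per the submitters' processing notes. Versions, aligner, genome build and strand setting: not given in the sources used here. Whole-number counts, not normalized, were deposited by the authors. StringTie derives them from coverage, so a count need not be a number of reads. The TPM deposited by the authors is scaled to gene length and a fixed total. The FPKM deposited by the authors is proportional to TPM within a library and was not tested.

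From these counts, edgeR 4.0.16 in R 4.3.3 (filterByExpr, TMM, glmQLFit, glmQLFTest) tested 13735 genes, 2-sided, with Benjamini-Hochberg adjustment and a threshold of 0.05. The SE is the size of the log2 fold change divided by the square root of F. CPM is the count scaled to the TMM-adjusted library total, and a floor of 3 counts is 0.0766 to 0.114 CPM, which covers counting error only. Data simulated from this comparison held 13571 genes, of which 100 were changed by 1.5-fold and 100 by 2-fold. Of these, 41% and 69% were recovered, and 0.0449% of unchanged genes were called. In the data 44.6% of all genes tested passed, so the adjusted threshold asked for smaller p-values in the simulation. The recovered shares therefore do not give the sensitivity of the tests above. Alternatives used DESeq2 1.42.0 and limma 3.58.1. Replicates of 1 group differed beyond sampling noise (chi-square over its degrees of freedom was 18.2 to 21.4).

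Members and gene lists were chosen with earlier results of these data known. Every member is accounted for. Values per library are given for the called members with the largest changes (up to 8 in each direction) and for members a grouping turns on, and of each companion list up to 4 called genes are named, plus those a sentence needs. The genes around YARS, the list without YARS, NARS and SARS2 were chosen for description after values were seen. Some genes that the lists take are not reported here. Overlapping genes, and genes with near-identical copies, have uncertain counts.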

Additional observations from a re-analysis of the deposited data

How the results depend on the processing

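Of the 19 called synthetase genes, 14 kept their call in all 11 alternatives based on counts and 11 in each of up to 15 that gave a value. The number higher was 8 to 11 and the number lower 7 to 9 when each library was left out in turn, and for the other genes of tRNA charging and supply the ranges were 11 to 16 and 11 to 13. Of those other genes, 12 were lower in the counts and 7 with limma on log2(TPM + 1), on log2(TPM + 0.1) and on genes of at least 5 TPM. Directions turned with TPM for QARS (0.22 with log2(TPM + 1), 0.22 with log2(TPM + 0.1), 0.22 with the 5 TPM filter and 0.11 with median-of-ratios scaling), TARS (0.28, 0.29 and 0.28 with log2(TPM + 1), log2(TPM + 0.1) and the filter), VARS2 (0.022, 0.024 and 0.022) and ATF4 (0.021 in each). The call of VARS2 was lost in 9 of the 11 alternatives based on counts, and those of TARSL2, EARS2, AARS2 and VARS on leaving out single libraries, as given beside their values. EPRS lost its call in 3 of the 4 TPM settings and kept it after median-of-ratios scaling. Of uncalled members, MARS, TARS2, RARS, LARS and NARS turned positive with log2(TPM + 1) (0.03, 0.04, 0.09, 0.04 and 0.04), and TARS stayed positive after median-of-ratios scaling (0.18). Without YARS, a setting added after seeing the data, 5 genes of the ATF4 list were lower.

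The labels do not say whether replicate numbers pair the libraries. Same-numbered deviations correlated at 0.0282, 0.00893 and -0.000322, which shows no shared deviation but cannot tell whether libraries were prepared in pairs. With the number as a replicate block, 9 synthetase genes were higher and 8 lower, and 2497 and 2725 of all genes, against 3002 and 3126 without it. TARSL2 (edgeR adjusted p = 0.0875), EARS2 (edgeR adjusted p = 0.0547) and VARS2 (edgeR adjusted p = 0.0843) lost their calls under the block, and NARS gained one (edgeR adjusted p = 0.027).

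Depth limits the least abundant members most, and PARS2 and TARSL2 rest on a few CPM. With 3 libraries a group and 1 named hairpin, effects of the hairpin beyond GOT1, or of a line, cannot be told apart from those of the knockdown.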

Other observations

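Trans-editing and release factors, which remove wrongly charged amino acids or free peptides from tRNA, were tested in both groups. Of the 6 genes tested, 4 rose and none was called lower in edgeR or DESeq2, with 1 lower at an unadjusted p under 0.05. AARSD1, an alanyl-tRNA editing enzyme, had a log2 fold change of 1.09 (SE 0.146, edgeR adjusted p = 0.00169), but it overlaps a read-through gene with which its reads may be shared. DTD2 (0.73), DTD1 (0.27) and PTRH2 (0.20) rose by less. The DTD2 call was lost without shGOT1 replicate 2 (edgeR adjusted p = 0.0582), shGOT1 replicate 3 (edgeR adjusted p = 0.0663) or shNC replicate 3 (edgeR adjusted p = 0.0606), and the PTRH2 call without shGOT1 replicate 3 (edgeR adjusted p = 0.056). The D-aminoacyl-tRNA deacylases are DTD1 and DTD2, and PTRH2 is a mitochondrial peptidyl-tRNA hydrolase. PTRHD1 was at -0.18 and did not pass the threshold. The background was 21.9% higher and 22.8% lower over all genes tested.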
